A study of Mus musculus with 8 samples.

Results

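The AP-1 subunits are a family of transcription factors that bind DNA as dimers, and the 8 genes described here are Fos, Fosb, Fosl1, Fosl2, Jun, Junb, Jund and Atf3. Members were chosen by gene symbol: every probe set to which the platform annotation gives one of these symbols and no other was taken, which gave 12 of the 12488 probe sets on the array and covered all 8 genes. Levels were log2 expression values of mouse embryonic fibroblasts, connective tissue cells cultured from embryos. One line was STAT3-/- and the other was STAT3+/+, and each line had immortalised spontaneously. Since 1 line stands for each genotype, the genotype and other differences between the lines cannot be told apart. The 4 groups were STAT3-/- cells given oncostatin M (OSM), untreated STAT3-/- cells, STAT3+/+ cells given OSM and untreated STAT3+/+ cells. Cells were given OSM, which is related to interleukin-6, at 20 ng/ml for 30 minutes, and all cells grew in medium with 10% serum. Each group had 2 arrays, whose titles end in the number 02 or 03 (the title number), so the precision rests on 8 arrays. The RNA came from whole cultures, in which fewer cells making a transcript and less of it per cell cannot be told apart.

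AP-1 dimers join through a leucine zipper and touch DNA through a neighbouring basic region. Jun proteins can pair with each other or with a Fos protein, whereas Fos proteins need a Jun partner, and Atf3 pairs with itself or with Jun proteins. Cytokines and growth factors raise several of these genes within minutes through the MAP kinases, which is why they are counted among the immediate early genes. OSM signals through gp130 receptors both to STAT3 and to the ERK branch of the MAP kinases, so the design sets AP-1 genes in cells that lack STAT3 beside those in cells that have it.

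With OSM, Fosl1 (Fra-1) was higher in both lines and in both title numbers, and it had the largest log2 difference of the tested AP-1 probe sets in STAT3-/- cells. Junb and Atf3 were also higher in both lines, each with at least 1 probe set that was 2-fold or more above untreated in both numbers. Fos itself was higher with OSM by 3.01 on the log2 scale within number 03 of STAT3-/- cells. Within number 02 its difference was 2.97 as deposited and 0.67 once values under 5 were set to 5, because untreated Fos lay under that floor there. In STAT3+/+ cells its differences were 0.39 within number 02, between values that were both under 5, and -0.20 within number 03. Jun, Jund and Fosl2 stayed within 0.69 of untreated on the log2 scale in every within-number comparison, and Fosb read under the floor of 5 on all 8 arrays. None of these differences passed limma's test with Benjamini-Hochberg adjustment over the 6756 probe sets tested, so all of them are given as values.

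Of the 12 AP-1 probe sets 9 passed the filter on low values (a log2 value of at least 5 on at least 2 arrays), covering 7 genes. In STAT3-/- cells 4 of these 9 were at least 1 higher on the log2 scale (2-fold) with OSM in both numbers, namely those of Fos and Fosl1 and one each of Junb and Atf3, beside 2.19% of all probe sets tested. With values under 5 set to 5 Fos left this count, and 3 of 9 remained, beside 2.04% of all. In STAT3+/+ cells 4 of 9 did the same, namely that of Fosl1, both of Junb and one of Atf3, beside 2.01% of all, and with that floor it was again 4, beside 1.85%. The probe sets of Fosl1, Junb (102362_i_at) and Atf3 (104155_f_at) did so in both lines, as did 0.918% of all. One of the 9, Atf3 104156_r_at, reached 5 on OSM arrays and on no untreated array, so its place among the tested probe sets came from those arrays and it had to be higher there. The median log2 difference of the other 8 was 1.36 in STAT3-/- cells, beside 0.02 over all, and 0.90 in STAT3+/+ cells, beside -0.04 over all. None of the 9 was called by limma in either comparison, in which 0% of all probe sets was called (adjusted p under 0.05). At an unadjusted p under 0.05, 1 of the 9 in STAT3-/- cells and 3 in STAT3+/+ cells passed, and 2.04% and 1.87% of all probe sets did so. In a fit with title number as a term, limma again called none of the 9, and 0.0296% of all probe sets in STAT3-/- cells (Hk2 and Ereg) and 0.0148% in STAT3+/+ cells (Hk2, which like Ereg here was named after its values were seen). In that fit 5 of the 8 without 104156_r_at in STAT3-/- cells and 4 in STAT3+/+ cells had an unadjusted p under 0.05, beside 11% and 7.18% of all. OSM and untreated arrays did not overlap, with OSM higher, for 4 of the 8 in STAT3-/- cells, beside 14.4% of all, and for 3 in STAT3+/+ cells, beside 8.29%. None of the 9 was at least 1 lower with OSM in both numbers, beside 0.518% of all in STAT3-/- cells and 0.933% in STAT3+/+ cells.

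**Figure D1:**
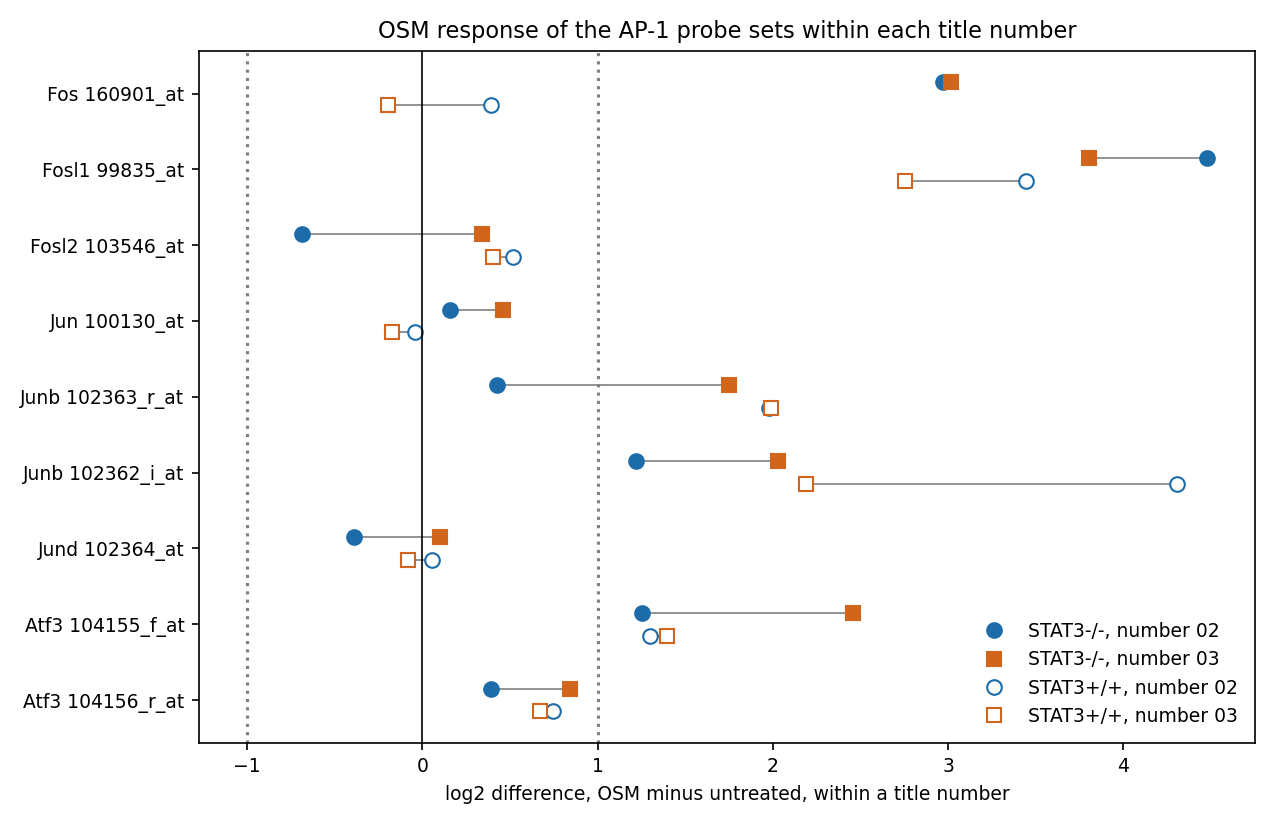
Log2 difference between OSM and untreated arrays of the same title number (horizontal axis) for the 9 AP-1 probe sets that passed the filter, in STAT3-/- cells (filled) and STAT3+/+ cells (open), number 02 as circles and number 03 as squares; dotted lines mark a 2-fold difference. Fosl1 lies at 2.76 or more in all 4 comparisons, while Fos lies at 2.97 and 3.01 in STAT3-/- cells and at 0.39 and -0.20 in STAT3+/+ cells, where 2.97 starts from a value under 5 and 0.39 lies between a pair of them.

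Title number mattered for these genes, and the labels do not say what it marks. The first principal component held 56.0% of the variance and separated the numbers, with STAT3-/- OSM number 02 at -19.43 apart from the other number 02 arrays at -54.69 to -48.05. That array enters each OSM value of STAT3-/- cells within number 02, where 10.8% of all probe sets were at least 1 higher with OSM, against 3.77% within number 03. Stat3, the deleted gene, had 2 probe sets, of which the first (99099_at) read 7.81 to 9.17 on the STAT3-/- arrays, against 10.11 to 11.94 on the STAT3+/+ arrays. The second (99100_at) read 7.30 on the STAT3-/- OSM number 03 array, which stood apart from the 2.76 to 2.94 of the other STAT3-/- arrays, against 9.80 to 12.57 on the STAT3+/+ arrays. Where the deletion lies relative to these probe sets is not given in the labels. Socs3, taken as a check of treatment, also differed between the numbers in STAT3-/- cells. Its probe set 92232_at read 9.12 with OSM and 8.31 without in number 02, but 11.98 and 5.38 in number 03. Its probe set 162206_f_at read 7.22 and 6.12 in number 02, but 10.48 and 6.22 in number 03. On the STAT3+/+ arrays both lay at 11.77 to 13.80 with OSM and 6.99 to 9.10 without. An OSM value of STAT3-/- cells thus uses an array that stands apart in one of these ways within either number, so the values of both numbers are given side by side, each without the other's array, and the part of these arrays in the results was not tested. Of 12 fibroblast markers 10, among them Col1a1 and Pdgfra, were at 5 or more on every array, while Vim and Thy1 were under 5 on every array. Of 6 epithelial markers 4, among them Cdh1 and Epcam, were under 5 on every array, as were 4 of 5 leukocyte markers on the array, among them Ptprc, and 2 of 4 endothelial markers. The leukocyte marker Cd14 and the endothelial marker Pecam1 were at 5 or more on each.

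Proximal promoters are shown for Fos, Junb and Atf3, the genes with higher values under OSM for which RefSeq's promoter table of GRCm38.p6 held an entry; 7 of the 8 genes had one and Fosl1 did not. Each sequence runs 250 bases up to the annotated start and reads in the direction of the gene. Capitals mark the 5 letters TGACG or, on the other strand, CGTCA, the first part of the cyclic AMP response element to which Atf and Creb proteins bind.
Fos, chr12:85473640-85473889, plus strand: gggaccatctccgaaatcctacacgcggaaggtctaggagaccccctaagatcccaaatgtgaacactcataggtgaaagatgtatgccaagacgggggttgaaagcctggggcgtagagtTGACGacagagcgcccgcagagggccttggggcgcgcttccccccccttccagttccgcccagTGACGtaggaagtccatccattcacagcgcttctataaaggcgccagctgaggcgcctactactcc
Junb, chr8:84978749-84978998, minus strand: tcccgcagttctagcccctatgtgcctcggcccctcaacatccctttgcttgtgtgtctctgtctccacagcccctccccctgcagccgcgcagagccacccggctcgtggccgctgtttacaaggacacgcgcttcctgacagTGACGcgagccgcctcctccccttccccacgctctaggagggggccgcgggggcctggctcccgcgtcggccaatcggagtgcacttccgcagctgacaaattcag
Atf3, chr1:191183334-191183583, minus strand: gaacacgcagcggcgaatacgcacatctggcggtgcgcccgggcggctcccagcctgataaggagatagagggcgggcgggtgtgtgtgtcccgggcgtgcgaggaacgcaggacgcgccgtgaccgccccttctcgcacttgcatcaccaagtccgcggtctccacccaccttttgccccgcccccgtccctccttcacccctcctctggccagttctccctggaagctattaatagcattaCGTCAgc

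The search covered both strands of the 250 bases before the start. TGACG occurred at 2 places before Fos, the nearer ending 62 bases from the start, at 1 place before Junb (ending 102 bases from it) and at 1 place before Atf3 (ending 3 bases from it), and at 1 place before Fosb. Jun, Jund and Fosl2 had none in their windows. Whether TGACG bears on the OSM response was not tested. Among all 32851 promoter windows of this length 17.8% held TGACG. Searches were also made for TGANTCA, the AP-1 site itself, for TTCNNNGAA, a spelling of the STAT site, and for the CArG box bound by serum response factor. None of the 7 AP-1 windows held any of these 3 motifs, which occurred in 6.75%, 7.02% and 1.47% of all windows. Places more than 250 bases before the start and other spellings of these sites were not searched. A place that reads TGACG cannot also read TGANTCA from the same first letter, and neither a match nor its absence in this window shows whether a factor binds.

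Fos, the founding member, whose transcript normally appears and decays within the first hour of stimulation, showed the widest range of all members. Its brighter probe set (160901_at) read 5.67 and 13.05 in STAT3-/- cells with OSM (numbers 02 and 03), against 2.70 and 10.04 without OSM. In STAT3+/+ cells it read 3.09 and 7.75 with OSM and 2.70 and 7.95 without. Every number 03 array was higher than every number 02 array, and within each number the STAT3-/- OSM array was the highest of its 4. All number 02 arrays but that one lay under the floor of 5, so the difference there starts from near background, and with values under 5 set to 5 it was 0.67 within number 02 while it stayed at 3.01 within number 03. STAT3-/- cells averaged 9.36 ± 5.22 with OSM and 6.37 ± 5.19 without (SD, n = 2 each). Their log2 difference was 2.99 ± 3.60 (SE, limma adjusted p = 1). The error was 0.76 once title number was a term (limma adjusted p = 0.379). STAT3+/+ cells averaged 5.42 ± 3.30 with OSM and 5.32 ± 3.71 without (SD, n = 2 each), which differed by 0.10 ± 3.60 (SE, limma adjusted p = 1).

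Whether the OSM response of Fos differed between the lines was tested as an interaction. The response of STAT3-/- cells exceeded that of STAT3+/+ cells by 2.58 within number 02 and 3.21 within number 03, a mean of 2.89 ± 5.09 (SE, limma adjusted p = 1). With values under 5 set to 5 these differences were 0.67 and 3.21. In the fit with title number the error was 1.07 and the adjusted p from limma was 0.913, so the interaction did not pass. Of the 9 AP-1 probe sets it was the only one with an unadjusted p under 0.05 there, as were 3.67% of all. Fos and Fosl1 were the 2 of 9 AP-1 probe sets whose response was at least 1 larger in STAT3-/- cells in both numbers, beside 1.42% of all probe sets, and with that floor Fosl1 alone was, beside 1.17%. None had a response at least 1 smaller in both, beside 0.77%. The second Fos probe set (161716_at) read 1.57 to 2.04 on all 8 arrays and did not pass the filter.

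Fosb, a close relative of Fos that is also an early gene, could not be followed. Its single probe set (103990_at) read 2.61 and 2.87 in STAT3-/- cells with OSM and 2.55 and 2.67 without. STAT3+/+ cells read 2.54 and 2.73 with OSM and 2.55 and 2.81 without. All 8 values lay under the floor of 5, and it was not tested.

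Fosl1, which encodes Fra-1, a Fos protein without the strong activation domain of Fos, read 11.01 and 10.52 in STAT3-/- cells with OSM, against 6.53 and 6.72 without. STAT3+/+ cells read 10.16 and 9.07 with OSM and 6.71 and 6.31 without. OSM and untreated arrays did not overlap in either line, and the 4 untreated arrays lay within 0.41 of each other. Expressed as folds, Fosl1 was 22.2-fold and 14.0-fold higher with OSM in numbers 02 and 03 of STAT3-/- cells and 10.9-fold and 6.75-fold higher in those of STAT3+/+ cells. By size of the log2 difference it ranked 18 and 17 of the 6756 probe sets in STAT3-/- cells, and 24 and 25 in STAT3+/+ cells, in numbers 02 and 03. The log2 difference was 4.14 ± 0.46 in STAT3-/- cells (SE, limma adjusted p = 0.236) and 3.10 ± 0.46 in STAT3+/+ cells (SE, limma adjusted p = 0.64). Both errors were 0.34 in the fit with title number, and the limma adjusted p was 0.0508 in STAT3-/- cells and 0.139 in STAT3+/+ cells, which still did not pass.

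The OSM response of Fosl1 was larger in STAT3-/- cells by 1.03 within number 02 and 1.05 within number 03. This interaction, 1.04 ± 0.65 (SE, limma adjusted p = 1), did not pass, nor did it with title number as a term (error 0.49, limma adjusted p = 0.913). Untreated cells of the 2 lines differed by 0.11 ± 0.46 in Fosl1 (SE, limma adjusted p = 1), with opposite signs in the numbers. With OSM the STAT3-/- cells were higher by 1.15 ± 0.46 (SE, limma adjusted p = 1), by 0.85 within number 02 and 1.45 within number 03.

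Fosl2, which encodes Fra-2, read 6.71 and 6.49 in STAT3-/- cells with OSM and 7.40 and 6.15 without. STAT3+/+ cells read 8.11 and 6.89 with OSM and 7.59 and 6.48 without. The groups overlapped in both lines, and in STAT3-/- cells the difference was -0.69 within number 02 and 0.34 within number 03. Its log2 difference was -0.17 ± 0.67 in STAT3-/- cells and 0.46 ± 0.67 in STAT3+/+ cells (SE, limma adjusted p = 1 each). In contrast to Fos, Fosl2 was lower in number 03 in all 4 groups, by 0.22 to 1.24.

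**Figure D2:**
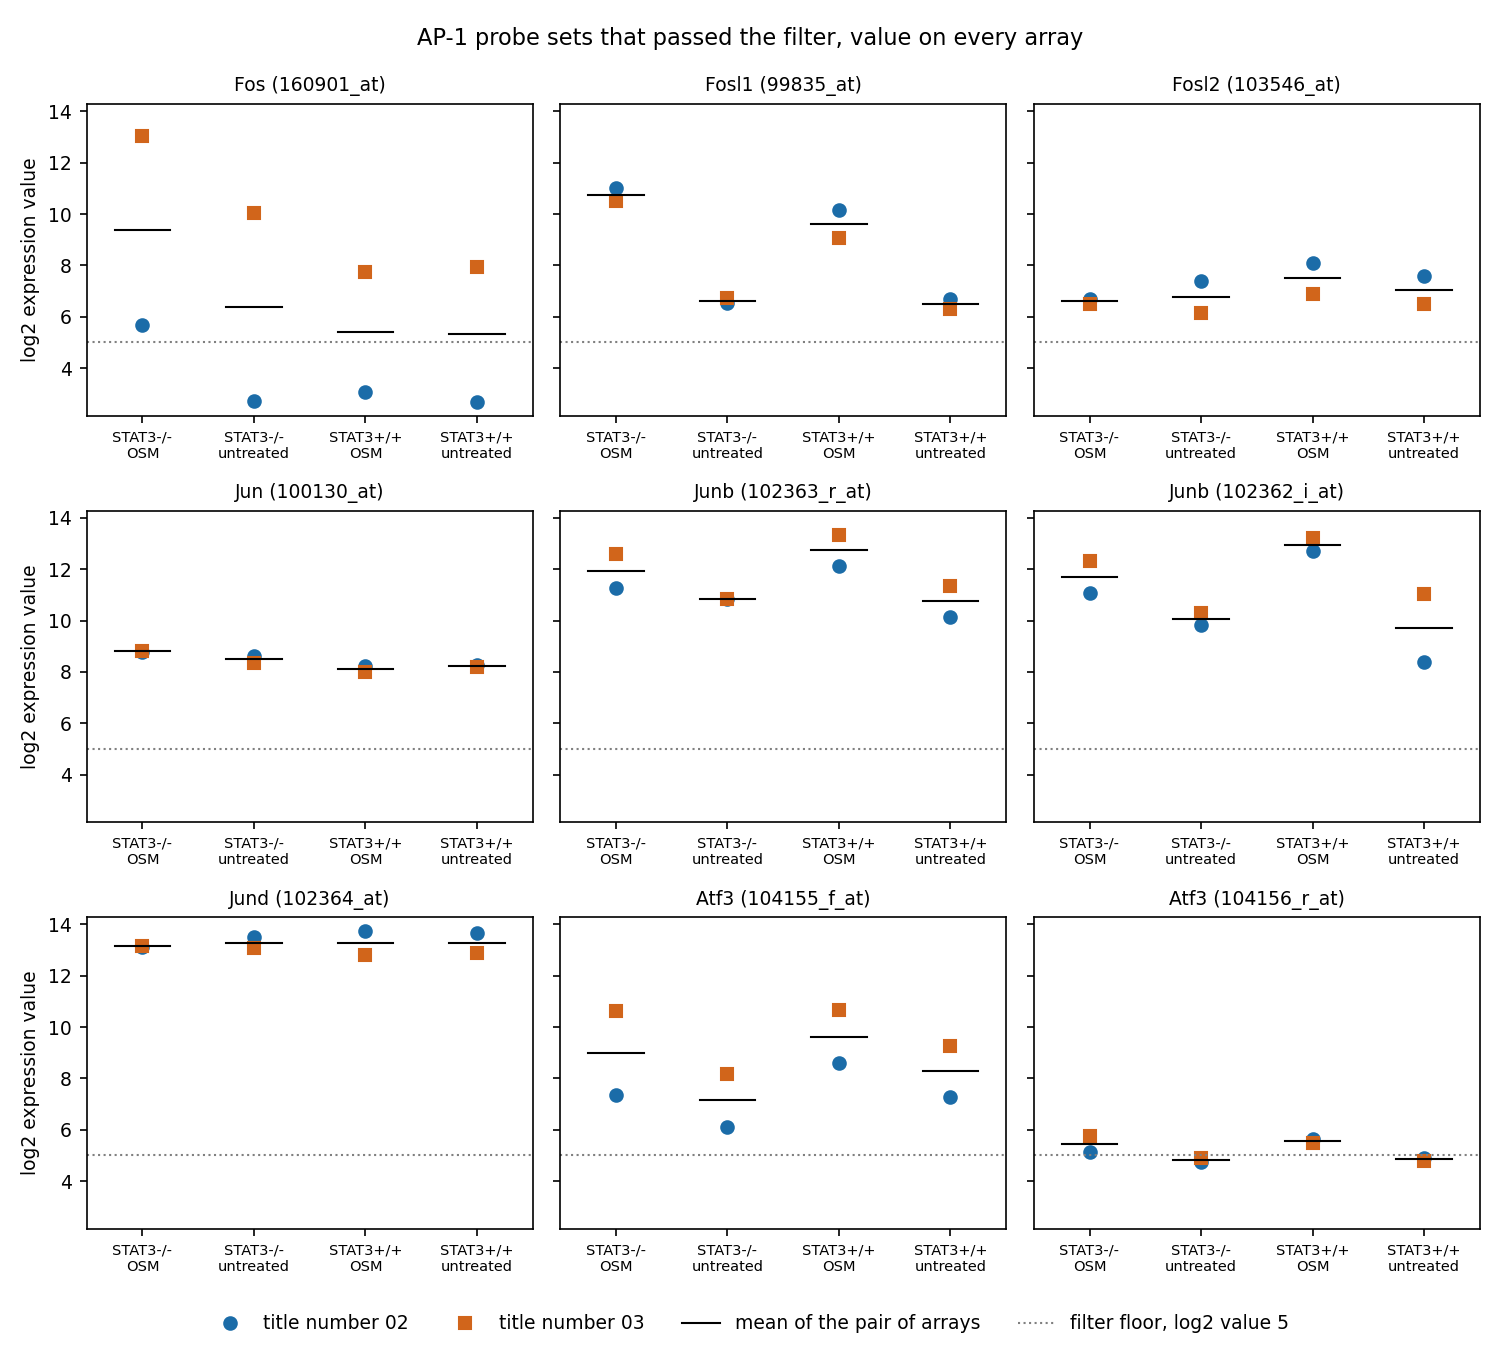
Log2 expression value (vertical axis) on every array for the 9 AP-1 probe sets that passed the filter, by group, with number 02 as blue circles, number 03 as orange squares, the mean of each group as a bar and the floor of 5 dotted. Fosl1 lies at 9.07 to 11.01 with OSM and at 6.31 to 6.72 without, and Fos is set apart by number. Jun lies at 8.01 to 8.82 and Jund at 12.79 to 13.74.

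Among the Jun proteins, which supply the partner for every Fos protein, Jun itself had values close to untreated. It read 8.79 and 8.82 in STAT3-/- cells with OSM, against 8.64 and 8.36 without, so that these groups did not overlap. In STAT3+/+ cells it read 8.23 and 8.01 with OSM and 8.28 and 8.18 without. Jun thus lay between 8.01 and 8.82 on all 8 arrays, and its log2 difference with OSM was 0.31 ± 0.30 in STAT3-/- cells and -0.11 ± 0.30 in STAT3+/+ cells (SE, limma adjusted p = 1 each). Between the lines with OSM, Jun was higher in STAT3-/- cells by 0.56 within number 02 and 0.81 within number 03, without overlap (0.69 ± 0.30, SE, limma adjusted p = 1).

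Junb, which often opposes Jun in growth control and is an early gene of gp130 cytokines, was measured by 2 probe sets. The first (102363_r_at) read 11.26 and 12.58 in STAT3-/- cells with OSM, against 10.84 and 10.83 without. In STAT3+/+ cells it read 12.14 and 13.35 with OSM and 10.16 and 11.36 without. OSM and untreated arrays did not overlap in either line, and the highest value of all was that of STAT3+/+ OSM number 03. The second (102362_i_at) read 11.07 and 12.33 in STAT3-/- cells with OSM and 9.85 and 10.30 without. Its STAT3+/+ values were 12.69 and 13.21 with OSM and 8.39 and 11.02 without, again without overlap.

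In STAT3+/+ cells the OSM differences of Junb were 1.98 and 1.99 within numbers 02 and 03 by the first probe set, but 4.31 and 2.19 by the second. The widest of these, 4.31, starts from the untreated STAT3+/+ number 02 array, the lowest of the 8 by both probe sets. In STAT3-/- cells the differences were 0.42 and 1.75 by the first probe set and 1.22 and 2.03 by the second. Both probe sets were thus nearer between the lines in number 03 than in number 02. The STAT3-/- values of number 03 use the OSM array on which Stat3 99100_at read 7.30. Those of number 02 use the OSM array that lay apart on the first principal component. The part of these arrays was not tested. Over both numbers the log2 difference was 1.09 ± 0.66 and 1.62 ± 0.89 in STAT3-/- cells and 1.98 ± 0.66 and 3.25 ± 0.89 in STAT3+/+ cells (SE, limma adjusted p = 1 for all 4). In the fit with title number the STAT3+/+ values had errors of 0.36 and 0.55 and limma adjusted p-values of 0.3 and 0.274.

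The response of STAT3-/- cells minus that of STAT3+/+ cells was -1.56 and -3.09 within number 02 for the first and second Junb probe set, and -0.24 and -0.16 within number 03. As an interaction this was -0.90 ± 0.93 and -1.63 ± 1.26 (SE, limma adjusted p = 1 each). In the fit with title number the limma adjusted p was 0.913 for both. The sign was opposite to that of Fos and Fosl1, and none of these differences passed the test. With OSM the level of Junb in STAT3-/- cells minus that in STAT3+/+ cells was -0.87 and -0.77 within numbers 02 and 03 by the first probe set and -1.63 and -0.88 by the second. The second probe set and that of Fosl2 were the 2 of 9 that separated these groups with STAT3-/- lower, beside 13.8% of all. With STAT3-/- higher, Fosl1 and Jun separated them, beside 11.2% of all.

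Jund, the Jun protein that resting cells usually hold most steadily, was bright, at 12.79 to 13.74 over the 8 arrays. With OSM it stayed within 0.39 of untreated in each title number. It read 13.12 and 13.18 in STAT3-/- cells with OSM and 13.51 and 13.07 without, and in STAT3+/+ cells 13.74 and 12.79 with OSM and 13.69 and 12.88 without. The groups overlapped in both lines, and the log2 difference was -0.14 ± 0.42 in STAT3-/- cells and -0.02 ± 0.42 in STAT3+/+ cells (SE, limma adjusted p = 1 each).

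Atf3, a stress-responsive factor that as a homodimer represses transcription, was measured by 3 probe sets. The brightest (104155_f_at) read 7.37 and 10.64 in STAT3-/- cells with OSM, against 6.12 and 8.18 without. In STAT3+/+ cells it read 8.58 and 10.68 with OSM and 7.29 and 9.28 without. The groups overlapped because number 03 was higher than number 02 throughout, but within each number the OSM array was higher in both lines. The differences were 1.25 and 2.46 within numbers 02 and 03 in STAT3-/- cells and 1.30 and 1.39 in STAT3+/+ cells.

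Averaged over the numbers Atf3 differed by 1.85 ± 1.41 in STAT3-/- cells and by 1.35 ± 1.41 in STAT3+/+ cells (SE, limma adjusted p = 1 each). In the fit with title number both errors were 0.38 and the limma adjusted p-values 0.325 and 0.482. The interaction was 0.51 ± 1.99 (SE, limma adjusted p = 1), with -0.05 within number 02 and 1.06 within number 03. A second probe set (104156_r_at) lay near the floor, at 5.14 and 5.76 in STAT3-/- cells with OSM and 4.75 and 4.92 without. STAT3+/+ cells gave 5.65 and 5.47 with OSM and 4.90 and 4.80 without, so OSM and untreated arrays did not overlap in either line. It passed the filter only through its OSM arrays, and so had to be higher there. The third (161645_r_at) read 0.00 to 0.26 on all arrays and did not pass.

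Without OSM the brightest Atf3 probe set in STAT3-/- cells minus STAT3+/+ cells was -1.16 within number 02 and -1.10 within number 03 (-1.13 ± 1.41, SE, limma adjusted p = 1). Its error was 0.38 in the fit with title number (limma adjusted p = 0.455). It was the only one of the 9 AP-1 probe sets at least 1 lower in both numbers in this comparison, as were 1.04% of all. In the same comparison none of the 9 was at least 1 higher in both numbers, beside 0.992% of all, and Jun alone separated the groups with STAT3-/- higher, beside 6.81%. Limma called none of the 9 there and 0% of all, and at an unadjusted p under 0.05 none of the 9 and 2.24% of all, or 1 of the 9 and 9.67% of all in the fit with title number. With OSM, Fos was the only one of the 9 that was at least 1 higher in STAT3-/- cells in both numbers, by 2.58 and 5.30, beside 2.04% of all, and none was at least 1 lower, beside 1.73%. With values under 5 set to 5 the differences of Fos were 0.67 and 5.30, and none of the 9 was at least 1 higher in both, beside 1.91% of all. Limma called none of the 9 and 0.0148% of all (Cx3cl1), or 0.104% in the fit with title number. At an unadjusted p under 0.05 there was 1 of the 9 (Fosl1), beside 3.6% of all, and in the fit with title number 4 of the 9, beside 12%. The log2 difference of Fos was 3.94 ± 3.60 (SE, limma adjusted p = 1), and in the fit with title number its error was 0.76 (limma adjusted p = 0.163).

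**Figure D3:**
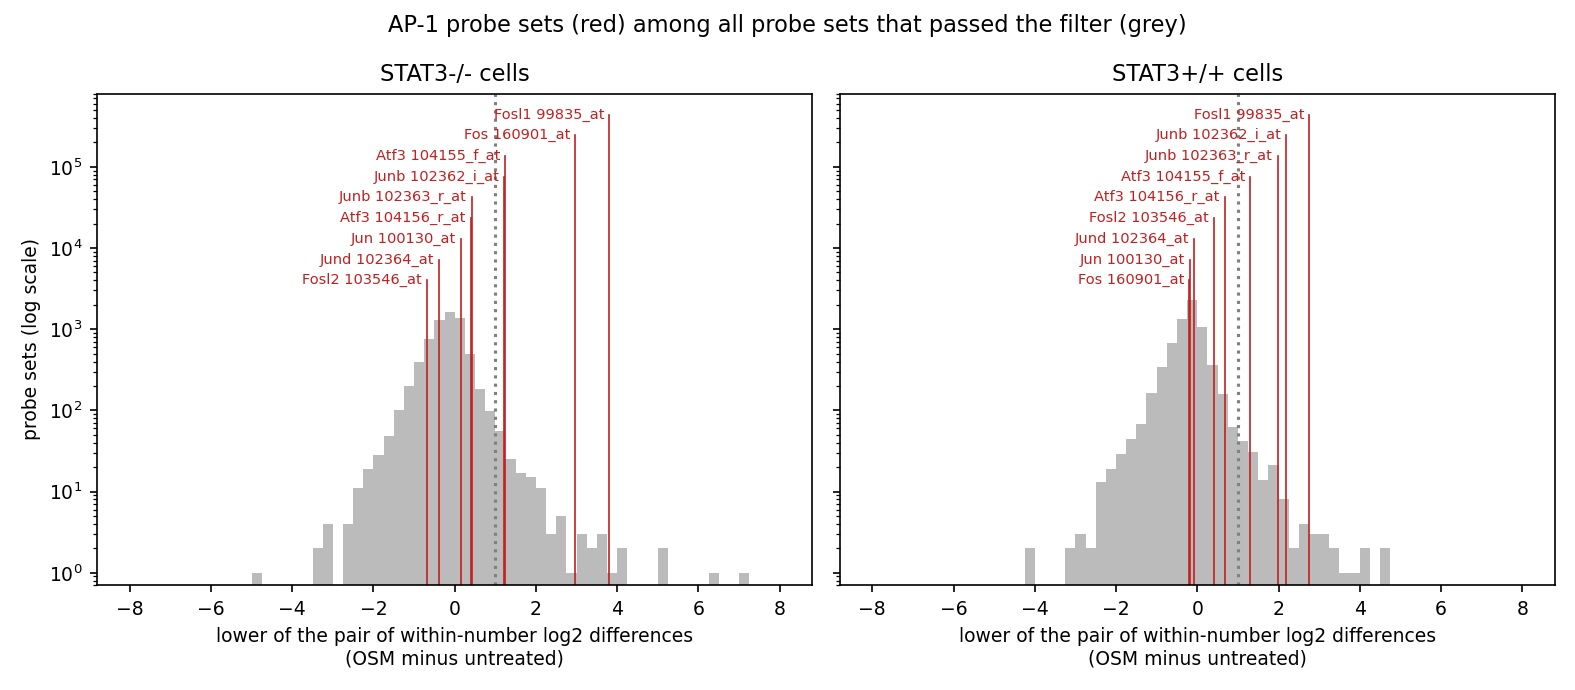
Lower of the pair of within-number log2 differences with OSM (horizontal axis) against the number of probe sets (vertical log axis) for all 6756 tested probe sets in grey and the 9 AP-1 probe sets as red lines, in STAT3-/- cells (left) and STAT3+/+ cells (right); the dotted line marks 1. Fosl1 lies farthest right of the AP-1 probe sets in both lines, and Fos lies at 2.97, a value that starts from under 5, in STAT3-/- cells and at -0.20 in STAT3+/+ cells.

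The AP-1 members also differed in how they varied between title numbers. Fos was higher in number 03 by 7.38 in STAT3-/- cells with OSM, 7.33 in STAT3-/- cells without, 4.66 in STAT3+/+ cells with OSM and 5.25 without. Number 02 values under the floor widen these, and with values under 5 set to 5 they were 7.38, 5.04, 2.75 and 2.95 in the same order of groups. The mean difference was 6.16 as deposited, which 0.118% of the probe sets tested exceeded in size, and 4.53 with the floor, which 0.266% exceeded. The brightest Atf3 probe set was higher in number 03 by 1.99 to 3.26 in the 4 groups, and 3.92% of the probe sets tested had a larger mean difference. For this probe set the OSM difference in STAT3-/- cells was 1.25 in number 02 and 2.46 in number 03, beside 2.06 between the untreated arrays of that line. In STAT3+/+ cells it was 1.30 and 1.39, both smaller than the 1.99 between the untreated arrays. Fosl1, in contrast, differed by -1.09 to 0.19 and Jun by -0.28 to 0.03.

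**Figure D4:**
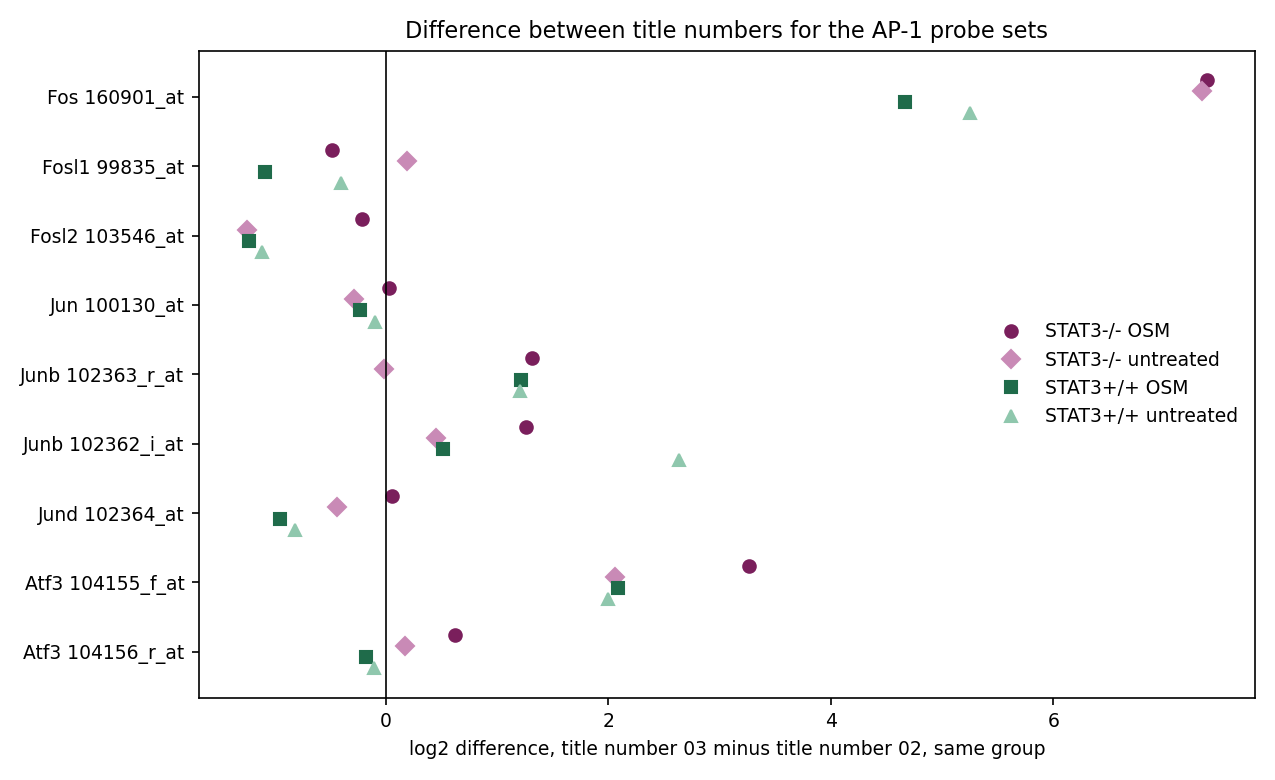
Log2 difference between number 03 and number 02 of the same group (horizontal axis) for the 9 AP-1 probe sets, with 1 symbol for each group. Fos lies at 4.66 to 7.38, in 3 groups from a number 02 value under 5, and the brightest Atf3 probe set at 1.99 to 3.26, while Jun lies within 0.28 of 0.

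Genes whose pattern was most like that of each member were looked for by Pearson correlation over the 8 arrays. Values were centred within each title number, and no test was made. The arrays may share their processing, and genes so picked resemble the member by choice. The search covered the 1525 single-symbol probe sets whose centred values had an SD of at least 0.5. For Fosl1 these were Gbp2b (0.995), Ereg (0.993) and Spata5 (0.990). Ereg, an EGF receptor ligand, read 10.76 and 10.94 in STAT3-/- cells with OSM and 3.35 and 4.64 without, and in STAT3+/+ cells 8.89 and 8.67 with OSM and 4.09 and 5.16 without. Its likeness to Fosl1, also highest in STAT3-/- cells with OSM in both numbers, is how it was picked and not a result. For Fos the nearest were Trim21 (0.996), Rgs16 (0.985) and Cxcl10 (0.971). Cxcl10, an interferon-inducible chemokine, read 8.48 and 14.11 in STAT3-/- cells with OSM and 6.17 and 11.41 without, against 5.61 and 7.94 in STAT3+/+ cells with OSM and 5.93 and 7.61 without.

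The Junb probe set 102363_r_at was nearest to Tnfrsf1a (0.983), Olr1 (0.959) and Snai1 (0.945), and 102362_i_at to Dnajc2 (0.974), Ccl7 (0.963) and Knop1 (0.957). Snai1, a repressor that drives mesenchymal traits, read 9.94 and 10.04 in STAT3-/- cells with OSM and 8.66 and 8.70 without, against 11.07 and 11.41 in STAT3+/+ cells with OSM and 8.84 and 9.20 without. The brightest Atf3 probe set was nearest to Fst (0.985), Txnrd1 (0.973) and Socs3 (0.947), and 104156_r_at to Casp4 (0.955), Rrp9 (0.951) and Ctrl (0.949). For Socs3, which restrains gp130 receptors, values were 9.12 and 11.98 in STAT3-/- cells with OSM and 8.31 and 5.38 without, against 13.80 and 13.80 in STAT3+/+ cells with OSM and 9.10 and 8.72 without. Jun was nearest to Apobec1 (0.950), Cx3cl1 (0.949) and Lima1 (0.945), Fosl2 to Men1 (0.934), 2610528A11Rik (0.924) and B4galt1 (0.911), and Jund to Hat1 (0.964), Gtse1 (0.942) and Tarbp2 (0.924). The centred values of Jun, Fosl2, Jund and Atf3 104156_r_at had SDs of only 0.29, 0.43, 0.22 and 0.395, so those neighbours follow small differences. Some neighbours also lay under the floor of 5 on several arrays, among them Rgs16 at 3.64 to 6.15 and Ctrl at 1.09 to 7.03.

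Other proteins with the same zipper, many of them partners of Jun, Fos or Atf3, were taken as a list. Of 28 listed genes 19 were on the array and 14 were tested. None was called in either OSM comparison, beside 0% of all probe sets in the fit without title number. In STAT3+/+ cells Nfil3, a repressor of this class, was the only one of the 14 at least 2-fold higher in both numbers, beside 2.08% of all 5195 genes. Its differences there were 1.79 and 2.35 on the log2 scale (2.07 ± 0.95, SE, limma adjusted p = 1). In STAT3-/- cells none of the 14 was, beside 2.16%. No gene of this list was at least 2-fold lower in both numbers, beside 0.539% of all genes in STAT3-/- cells and 0.943% in STAT3+/+ cells. Nfil3 read 11.97 and 13.18 with OSM and 10.18 and 10.83 without in STAT3+/+ cells. In STAT3-/- cells its differences were -0.08 within number 02 and 1.10 within number 03. The response of STAT3-/- cells minus that of STAT3+/+ cells was -1.56 ± 1.35 (SE). In the fit with title number this interaction had a limma adjusted p of 0.913, so it did not pass. The list's median log2 difference was 0.275 in STAT3-/- cells, beside 0.01 over all 5195 genes, and -0.01 in STAT3+/+ cells, beside -0.06.

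Upstream of AP-1, a list held the MAP kinases and the factors through which they act. Of its 40 genes 31 were on the array and 22 were tested. None was called in either OSM comparison, beside 0% of all probe sets in the fit without title number. Map3k1, a kinase that feeds the JNK branch, was the only one of the 22 at least 2-fold higher in both numbers in STAT3-/- cells, beside 2.16% of all 5195 genes. Its differences were 1.08 and 1.22 there (1.15 ± 0.35, SE, limma adjusted p = 1) and 0.65 and 0.35 in STAT3+/+ cells. None of the 22 was at least 2-fold higher in both numbers in STAT3+/+ cells, beside 2.08%. No gene of this list was at least 2-fold lower in both numbers in either line. Over all genes that share was 0.539% in STAT3-/- cells and 0.943% in STAT3+/+ cells. Medians were 0.14 in STAT3-/- cells and -0.14 in STAT3+/+ cells, beside 0.01 and -0.06 over all genes.

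Genes commonly listed as AP-1 targets had a median above that of all genes with OSM. The list was drawn up with earlier results of these data known. Any gene that passed the filter only through OSM arrays was not set apart. Of 38 listed genes 30 were on the array and 26 were tested, with a median log2 difference of 0.73 in STAT3-/- cells and 0.79 in STAT3+/+ cells, beside 0.01 and -0.06 over all genes. At least a 2-fold higher level in both numbers was seen for 6 of the 26 in STAT3-/- cells and for 7 in STAT3+/+ cells, beside 2.16% and 2.08% of all 5195 genes. At least a 2-fold lower level in both was seen for 0 and 2 of the 26, beside 0.539% and 0.943% of all genes. None was called by limma without title number as a term, and with it Ereg was called in STAT3-/- cells (limma adjusted p = 0.0214). Untreated Ereg read 3.35 and 4.64 in STAT3-/- cells and 4.09 and 5.16 in STAT3+/+ cells. It thus passed the filter only with its OSM arrays, and neither its call nor its place in these counts is support for the list.

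In STAT3-/- cells those at least 2-fold higher were Ereg (7.40 and 6.30 within numbers 02 and 03), the EGF family ligand Hbegf (2.29 and 3.01), the chemokine Ccl2 (4.16 and 2.20), the prostaglandin synthase Ptgs2 (5.14 and 1.85), the matricellular Ccn2 (5.25 and 1.51) and the integrin Itga5 (1.03 and 1.29). The differences of Ereg there start from untreated values under 5. In STAT3+/+ cells the 6 whose smaller within-number difference was largest in size were Ereg (4.79 and 3.51), the sphingosine kinase Sphk1 (1.76 and 3.00), the collagenase Mmp13 (1.67 and 3.30), the protease inhibitor Timp1 (1.43 and 1.99), Vegfa (1.499 and 1.31) and Ccn2 (-1.29 and -1.94). Ccn2 thus had opposite signs in the 2 lines, but its untreated values were 3.47 and 10.38 in STAT3-/- cells and 11.33 and 6.27 in STAT3+/+ cells, a spread between arrays wider than either difference. Of the 26 tested genes Ereg and Ccl2 were at least 2-fold higher in both numbers of both lines, Ccl2 by 3.07 and 1.11 in STAT3+/+ cells. Several of these genes are also known targets of STAT3 and other factors.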

How the data were processed

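Per the labels' protocols, labelled RNA of 8 cell samples was hybridised to Affymetrix arrays. The authors deposited log2 values, 1 per probe set and array, for which the submitters' processing notes name GCRMA and affy without versions. Whether the 8 arrays were processed as one set is not stated. Dim probe sets can be drawn down by this method, which widens a difference that starts near background. Control probe sets (66) were set aside, and 6756 of the other 12422 passed a log2 value of 5 on at least 2 arrays. Values ran from -1.16 to 17.18, and 51.1% to 52.9% of probe sets reached 5 on an array. Treatment was taken from the titles, because the description names OSM for every sample, untreated ones included. The labels do not say that arrays of one group were separate cultures, and p-values then cover array-to-array spread only, possibly technical.

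Tests used limma 3.58.1 (R 4.3.3) with lmFit and eBayes (intensity trend), 4 group means, 4 residual degrees of freedom, two-sided, and Benjamini-Hochberg adjustment over all tested probe sets. The fit was tested on simulated data. Differences of number 03 minus 02 correlated at 0.589 to 0.911 between every pair of groups, so title number was taken as pairing, on the evidence of the data alone, and a second fit had it as a term (3 residual degrees of freedom). Named genes were the 8 members, Stat3 and Socs3, up to 6 list members per OSM comparison at least 2-fold apart in both numbers, and the 3 genes most like each tested member. Members, lists and rules were chosen with earlier results of these data known. Lists had 1 probe set per gene, that with the highest mean. Alternatives were other filters, no trend, robust estimation, quantile normalization, median centring, a floor at 5, fewer groups in the fit, the replicate block, other thresholds and leaving out each array. Each title number alone, the floor in comparisons other than the OSM ones, and counts without Atf3 104156_r_at were added after seeing the data.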

Additional observations from a re-analysis of the deposited data

Results flagged for a closer look

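Jun was flagged because both STAT3-/- pairs of arrays had higher values with OSM and both STAT3+/+ pairs lower ones. Its differences were 0.16 and 0.46 within numbers 02 and 03 in STAT3-/- cells and -0.04 and -0.17 in STAT3+/+ cells. Tested as an interaction, the response in STAT3-/- cells minus that in STAT3+/+ cells was 0.42 ± 0.43 (SE, limma adjusted p = 1), which did not pass.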

How the results depend on the processing

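No AP-1 probe set was called in any of the 5 comparisons under any alternative run, and the 4 probe sets at least 2-fold higher in both numbers became 2 in each line at a threshold of 2 on the log2 scale (4-fold). The 1 probe set called over all between STAT3-/- and STAT3+/+ cells with OSM became 0 without the trend, with robust estimation, quantile normalization, median centring, a floor at 5 or only the groups compared. With the replicate block (pairing by title number) it became 7, and the OSM comparisons had 2 calls in STAT3-/- cells and 1 in STAT3+/+ cells, against 0 without it. A floor at 5 gave 1 call for OSM in STAT3-/- cells and turned Fos in STAT3+/+ cells to -0.10, and median centring turned Atf3 (104156_r_at) between untreated lines to 0.10. The causes were not tested.

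Leaving out each array in turn, with and without the block, gave 0 to 2 calls between the lines with OSM, 0 to 1 between untreated lines and 0 to 1 for OSM in STAT3-/- cells. A left-out array leaves a lone one in its group, which is assumed to vary like the others, and without the block it mixes title numbers. The log2 differences that changed sign in either fit ran as follows, each range being taken over both fits together. For OSM in STAT3-/- cells, Fos ran from -0.70 to 6.68, Fosl2 from -0.80 to 0.45 and Jund from -0.54 to 0.25. For OSM in STAT3+/+ cells, Fos ran from -2.53 to 2.72, Fosl2 from -0.15 to 1.07, Jun from -0.22 to 0.0074 and Jund from -0.49 to 0.46. For the response of STAT3-/- minus STAT3+/+ cells, Fos ran from -0.80 to 6.58, Jund from -0.60 to 0.35, and Atf3 from -1.13 to 2.14 (104155_f_at) and -0.42 to 0.24 (104156_r_at). Between untreated lines, Fos ran from -2.62 to 4.71, Fosl1 from -0.31 to 0.54, Fosl2 from -0.89 to 0.36, Junb from -0.55 to 0.70 (102363_r_at) and -0.94 to 1.69 (102362_i_at), Jund from -0.39 to 0.42 and Atf3 (104156_r_at) from -0.17 to 0.14. Between lines with OSM, Jund ran from -0.59 to 0.36 and Atf3 from -2.26 to 1.01 (104155_f_at) and -0.44 to 0.22 (104156_r_at). The extremes of Fos for OSM in STAT3-/- cells came without the OSM array of number 03 (-0.70) and of number 02 (6.68), in the fit without the block. With the block Fos ran from 2.18 to 3.81 for OSM in STAT3-/- cells and from -0.90 to 1.09 in STAT3+/+ cells. For the response of STAT3-/- minus STAT3+/+ cells it then ran from 1.90 to 3.89, and between untreated lines from 0.26 to 1.83. Signal near background limits Fos in number 02 and Atf3 (104156_r_at).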
